A study of Caenorhabditis elegans with 22 samples.

Results

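Control worms on the solvent DMSO were followed from young adulthood, 1 day after the last larval stage L4, to day 5, near the end of self-reproduction. The comparison is between the groups DMSO 1day and DMSO 5day, with 3 libraries each (n = 3), and it covers all genes. By their titles these are 6 of the 22 libraries of the series. All 22 entered 1 fit, which set the filter on low counts, the scaling and the spread behind its p-values. Whole Caenorhabditis elegans were grown on NGM agar plates that carried the solvent alone, and every library was made with the same kit from total RNA. The other 16 libraries are DMSO worms of days 10 and 20 and worms on 100 nM rotenone, an inhibitor of respiratory complex I, at the same 4 ages. The rotenone libraries of days 1 and 5 (n = 3 each) are used below as a separate set of samples over the same ages. The labels give no strain. They also leave unsaid if the 3 libraries of a group are separate cultures, and a p-value here then measures the spread between libraries, possibly a technical one. Nor do they say whether a sterilising drug was used or how adults were kept apart from their offspring.

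A hermaphrodite makes its sperm as a larva, stores them, and then makes only oocytes, so the stock of sperm limits the number of offspring it can produce by itself. Oocytes take up yolk proteins that the intestine makes and receive an eggshell after fertilisation. The adult cuticle is laid down around the last moult by the epidermis from collagens. All body cells of the adult are postmitotic, and cell division continues in the germline and in the embryos that the mother carries.

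Total counts over the 6 libraries ran from 33835529 to 57846810. Of 16822 genes with enough counts to be tested, 9413 (56.0%) passed at an adjusted p under 0.05. Of these, 4145 (24.6% of the genes tested) were higher at day 5 and 5268 (31.3%) were lower. With a trend of counts on gene length removed the balance turned, with 5594 higher and 4942 lower. By size, 3003 genes fell and 1037 rose by over 2-fold, and the median size of a called change was 1.14 for falls and 0.59 for rises on the log2 scale. CPM of the 3 libraries of one age did not overlap those of the other for 11554 genes (68.7%). With so many genes called, the count of a list is read against these shares. The ages separated along the first principal component, which took 85.7% of the variance. On the second, with 5.54%, day 5 replicate 3 lay at 34.3 and the other day 5 libraries at -14 and -21.9. Without that library 3594 genes were higher and 4863 lower. Levels below are in CPM, counts scaled by library size, given for replicates 1, 2 and 3 in turn, and differences are log2 fold changes of day 5 over day 1 ± SE. CPM do not allow for gene length and levels are compared only within a gene. The exception is the ranking of genes by gain in CPM, which depends on their length and level.

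**Figure D1:**
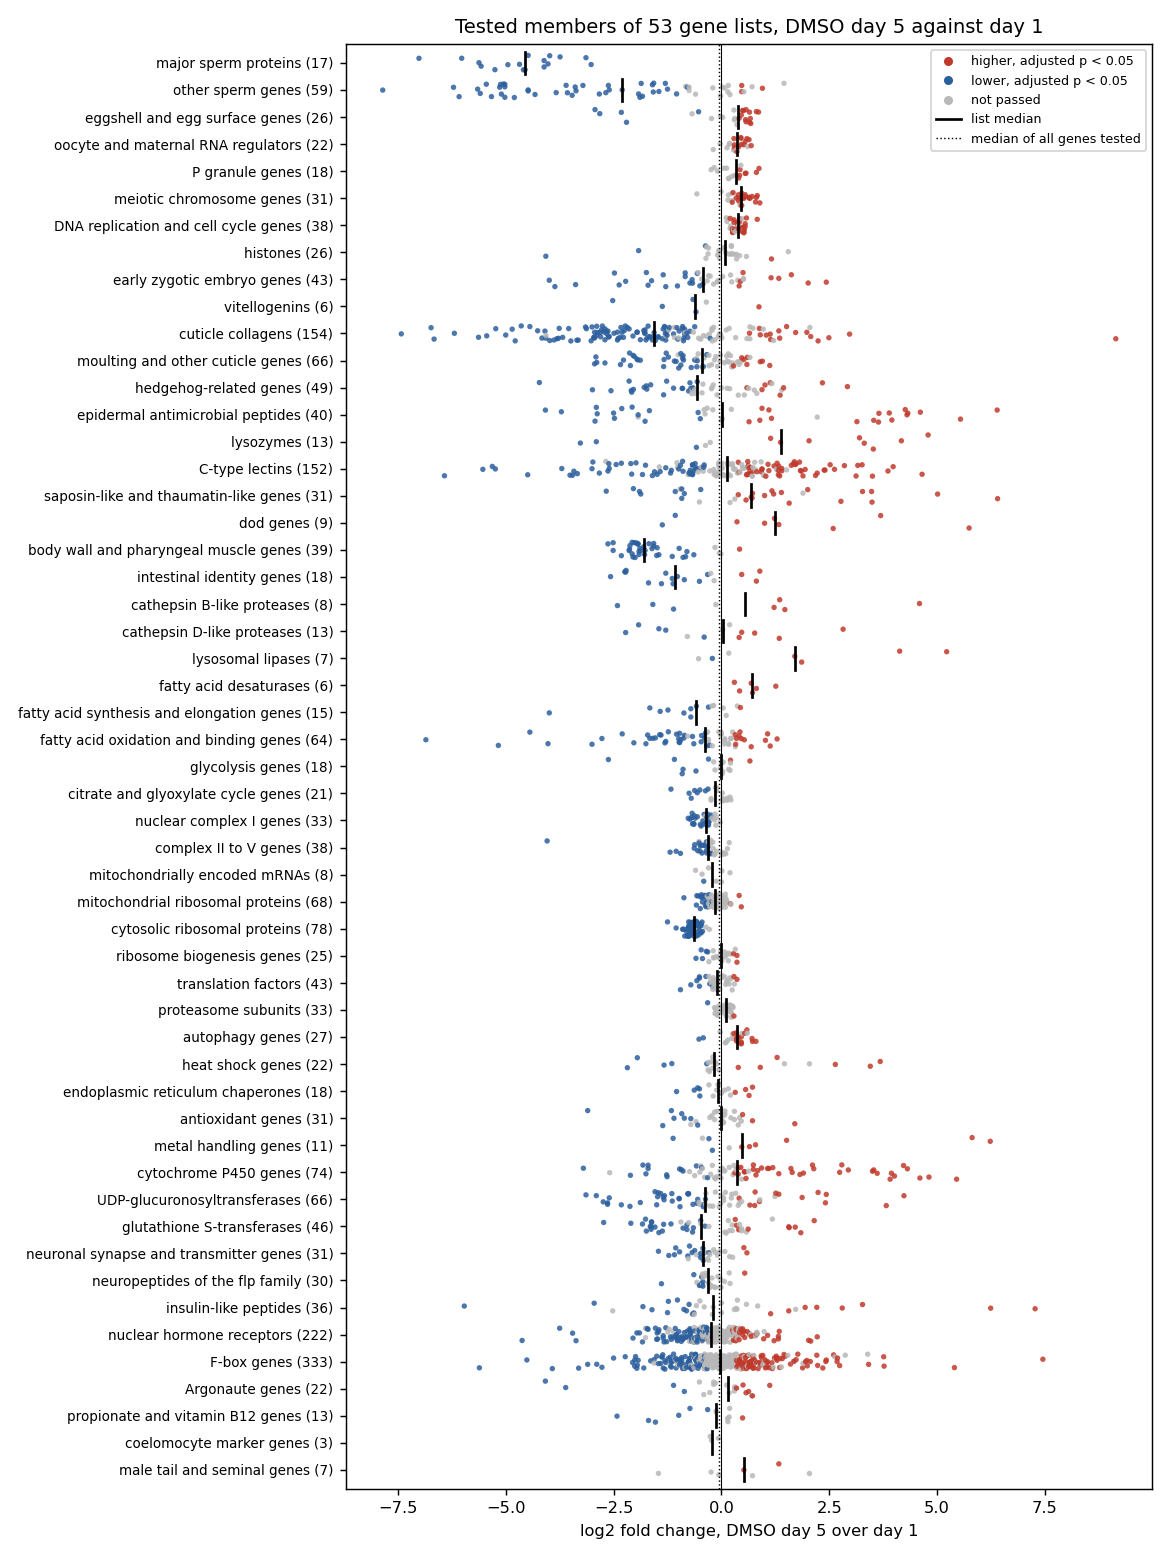
Each point is a tested member of 1 of 53 gene lists, placed by its log2 fold change of DMSO day 5 over day 1, with the number tested in brackets. Red points passed as higher, blue as lower and grey points did not pass; black bars are list medians and the dotted line is the median of all genes tested, -0.05. Sperm, collagen and muscle lists lie left of the line, with medians of -4.55, -1.56 and -1.80, and the germline division lists lie to its right.

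Most tested sperm genes fell, and many genes of cell division, meiosis, oocytes and the eggshell rose. Of 35 genes for major sperm proteins, which drive the crawling of nematode sperm, 17 passed the filter on low counts and all of these were lower at day 5, with log2 fold changes from -7.01 to -3.02. At these levels a gene passes the filter only through libraries where it is higher, so the count lends the fall no weight of its own. Summed over all 35, the deposited counts were 557, 714 and 431 at day 1 and 19, 32 and 12 at day 5, and 3 of the 35 had no count in any of the 6 libraries. The copies of this family are nearly identical, so reads of single members are uncertain. For msp-76 the levels were 1.64, 1.88 and 1.52 CPM at day 1 and 0.0834, 0.0794 and 0.134 CPM at day 5, where the 3 libraries held 11 counts. That is a fold change of -4.11 ± 0.42 (adjusted p = 9.6e-08), with no overlap between ages. In whole animals, fewer cells of a type and less RNA per cell cannot be told apart, here or in any list that follows.

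Among 66 other sperm genes, 59 were tested, 42 were lower and 3 higher, with a median of -2.3. Their joint share of counts moved less, from 0.0281% ± 0.00078 (SD) at day 1 to 0.0238% ± 0.00037 at day 5. With a minimum mean of 50 counts 21 were tested, with a median of -1.40. The small nspd-10 transcript stood at 2.47, 1.77 and 2.03 CPM at day 1 and at 0.0278, 0.0596 and 0.101 CPM at day 5 (-5.05 ± 0.35, adjusted p = 3.8e-10). ZC168.6, now ssp-34, of a sperm-specific family, fell by 5.02 ± 0.35. The Argonautes T22B3.2 (now alg-3) and tag-76 (now alg-4), which bind small RNAs during spermatogenesis, fell by 3.61 and 4.08, the largest falls among the 22 tested Argonautes. Not every gene with a sperm role went this way. Y51F10.10, now spe-48, rose from 38.1, 35.7 and 41.8 CPM to 52.9, 50.3 and 56.9 CPM (0.47 ± 0.09, adjusted p = 0.00011). The trafficking gene spe-39, which also acts outside sperm, stood at 106 ± 4.5 CPM at day 1 and 111 ± 9.7 CPM at day 5 (SD, n = 3), groups that overlap. Of the 22 Argonautes 6 rose (27.3%, against 24.6% over all genes), including prg-1, the germline Argonaute of piRNAs (0.57 ± 0.14). The genes alg-1 and alg-2, of the microRNA pathway, did not pass.

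The lists for cell division, meiosis and oocytes had rises and no falls, of small size. Of 38 tested genes for DNA replication and the cell cycle, 26 were higher and 0 lower, with a median of 0.39. These genes also act in the embryos that the mother carries. The mitotic kinase gene cdk-1 read 270, 271 and 271 CPM at day 1 and 397, 410 and 411 CPM at day 5 (0.58 ± 0.07, adjusted p = 1.2e-06). The ages did not overlap, and the gap between them was far wider than the spread within either. Cyclin B cyb-3 rose by 0.37 ± 0.10 and the ribonucleotide reductase subunit rnr-2, which supplies deoxynucleotides, by 0.39 ± 0.11. The centriole duplication gene sas-5 rose from 118, 118 and 130 CPM to 169, 168 and 182 CPM.

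Meiotic chromosome genes gave 24 higher and 0 lower of 31, with a median of 0.46. F08G5.1, now dsb-1, which is needed for meiotic double-strand breaks, rose from 62.8 ± 0.52 (SD) to 103 ± 6.9 CPM, by 0.71 ± 0.08. The strand-exchange gene rad-51, which repairs such breaks, rose by 0.64 ± 0.08. Of 22 oocyte and maternal RNA regulators 13 were higher and 0 lower (median 0.37). The oocyte maturation gene oma-2 read 548, 578 and 555 CPM at day 1 and 851, 839 and 839 CPM at day 5 (0.59 ± 0.10), and pie-1, which keeps germline precursors from somatic transcription, rose by 0.69 ± 0.12. The yolk receptor gene rme-2 read 1328, 1298 and 1382 CPM at day 1 and 1740, 1488 and 1978 CPM at day 5. Its groups did not overlap, but day 5 was spread widely and it did not pass (0.38 ± 0.20, adjusted p = 0.11). P granule genes, of the germline's RNA granules, gave 8 higher and 0 lower of 18 (median 0.33), led by meg-2 (0.87 ± 0.12) and meg-1 (0.43 ± 0.09), while cgh-1 and car-1 did not pass. The Notch receptor gene glp-1, which keeps germline stem cells dividing, read 320, 292 and 342 CPM at day 1 and 460, 394 and 598 CPM at day 5, just short of the threshold (0.61 ± 0.26, adjusted p = 0.053).

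Of 26 eggshell and egg surface genes 13 rose and 5 fell, and their joint share of the counts went from 1.37% ± 0.027 to 2.03% ± 0.071 (SD). The eggshell chondroitin carriers cpg-2 and cpg-1 were among the genes with the largest gains in CPM of all. For cpg-2 the levels were 2773, 2529 and 2751 CPM at day 1 and 4738, 4368 and 5010 CPM at day 5 (0.81 ± 0.14, adjusted p = 7.8e-05), and cpg-1 rose by 0.68 ± 0.14. The egg surface gene egg-2, needed for fertilisation, rose from 303, 311 and 320 CPM to 490, 464 and 509 CPM, and chs-1, the chitin synthase of the eggshell, by 0.57. The 5 that fell were cpg-9 and the genes now named cpg-18, cpg-20, cpg-22 and cpg-24. Cpg-9 went from a mean of 55.5 to 7.26 CPM (-2.93, adjusted p = 6.1e-10).

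Of 43 tested early zygotic genes (52 listed), switched on in young embryos, 20 fell and 8 rose, with a median of -0.43. Those are 46.5% and 18.6%, against 31.3% and 24.6% over all genes. Members with low counts can pass the filter only through the age where they are higher. With a minimum mean of 50 counts 25 were tested, with a median of -0.28. The mesoderm homeobox gene ceh-51 read 2.69, 2.52 and 2.70 CPM at day 1 and 0.195, 0.258 and 0.302 CPM at day 5 (-3.38 ± 0.28), and the endoderm factor end-1 fell by 3.86. Against this, the T-box genes tbx-37 and tbx-38, of an anterior embryonic lineage, rose by 2.01 and 2.43. These genes took 0.0245% ± 0.00012 (SD) of counts at day 1 and 0.0200% ± 0.00076 at day 5. Of 26 tested histone genes (72 listed, 33 of them without a count in the 6 libraries), 3 fell and 1 rose. His-24, a linker histone, fell from 180, 193 and 195 CPM to 54.9, 54.5 and 40.8 CPM (-1.92 ± 0.17).

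Markers of males stayed low. The 7 tested genes of the male tail and seminal fluid took 0.00141% ± 0.00016 (SD) of counts at day 1 and 0.00203% ± 0.00033 at day 5. Of these, try-5, a seminal fluid protease, rose from 0.437, 0.479 and 0.338 CPM to 0.778, 1.07 and 1.41 CPM, and swm-1, a protease inhibitor of sperm activation, by 0.52 ± 0.12. The 3 coelomocyte markers, of the scavenger cells of the body cavity, gave 0 calls (1 scavenger gene, unc-122, at -0.26 ± 0.16).

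The 6 vitellogenin genes, which code for yolk, did not move as one, with 4 lower, 1 higher and a median of -0.62. At day 1 they held 4.63% ± 0.49 (SD) of all counts and at day 5 3.54% ± 0.92. Vit-1 read 2991, 2832 and 3641 CPM at day 1 and 525, 419 and 703 CPM at day 5 (-2.52 ± 0.23, adjusted p = 2.4e-08). Vit-3 fell by 1.37 ± 0.24. By contrast vit-5 read 2857, 2287 and 3204 CPM at day 1 and 4523, 3556 and 7195 CPM at day 5, a rise of 0.87 ± 0.34 (adjusted p = 0.037). This call rests on day 5 replicate 3, the highest library: without it the value was 0.54 (adjusted p = 0.23), and it was also lost without day 1 replicate 1 or 2 (adjusted p = 0.074 and 0.13) and with a minimum mean of 50 counts (adjusted p = 0.056). Vit-6, the yolk gene most unlike the others, read 30610, 26025 and 35066 CPM at day 1 and 22249, 16586 and 32904 CPM at day 5. Its groups overlap and it did not pass (-0.35 ± 0.35, adjusted p = 0.40). The fall of vit-2 (-0.59 ± 0.23, adjusted p = 0.037) was lost without day 1 replicate 1 or 3, or day 5 replicate 1 or 2, with adjusted p of 0.067, 0.11, 0.091 and 0.17. Genes vit-3, vit-4 and vit-5 are close in sequence, so the split of reads between them is uncertain.

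**Figure D2:**
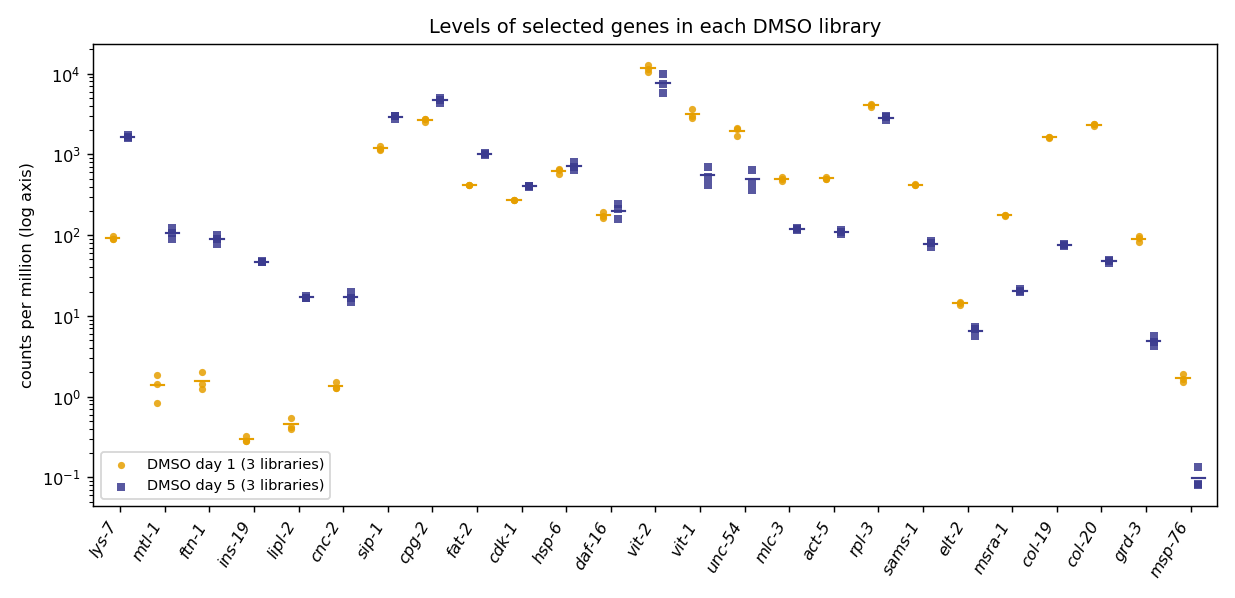
CPM of 25 genes in each DMSO library on a log axis, with day 1 as orange circles, day 5 as blue squares and short lines for the means of 3 libraries. Genes on the left rose, hsp-6 and daf-16 in the middle overlap between ages, and genes on the right fell, with msp-76 last, between 0.0794 and 0.134 CPM at day 5.

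Cuticle collagens, made by the epidermis, took 2.76%, 3.04% and 2.89% of the counts at day 1 and 0.593%, 0.590% and 0.492% at day 5. Of 154 tested collagens (178 listed), 106 fell and 16 rose, with a median of -1.56, and 93 of the falls were over 2-fold. For col-124 the levels were 2850, 3006 and 3131 CPM at day 1 and 66.8, 70.4 and 70.4 CPM at day 5 (-5.44 ± 0.25, adjusted p = 1.5e-12). The largest fall in fold of any gene named by the rule was that of col-129, from 565, 627 and 552 CPM to 2.70, 4.01 and 3.42 CPM (-7.42 ± 0.40). Both sets of replicates lay close together and far from each other. Col-139, col-93 and col-81 fell by 6.73, 6.66 and 6.19, and col-20 from a mean of 2345 to 47.3 CPM.

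A small set of collagens rose, 13 of them over 2-fold. Col-183, on chromosome X, had 8 counts at day 1 and 4047 at day 5 over the 3 libraries, with 32.9, 38.6 and 30.9 CPM at day 5. The pooled ratio was 600-fold, with a 95% interval for counting error of 304 to 1390. Col-95 went from a mean of 106 to 445 CPM (2.07, adjusted p = 1.7e-10) and col-43 from 2.55 to 8.45 CPM. Among 66 tested genes of moulting and other cuticle parts 32 fell and 8 rose (median -0.44). Cutl-2, of the cuticlin-like proteins, fell by 2.89 ± 0.17, while bli-4, a convertase that trims collagen precursors, rose from 272, 260 and 265 CPM to 397, 378 and 427 CPM. The bli-4 gene overlaps mut-2, and the kit does not mark the strand, so reads in the overlap could belong to either.

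Hedgehog-related genes, secreted proteins made largely by the nematode epidermis, fell in 21 and rose in 8 of 49 tested (61 listed; median -0.56). Grd-3 fell from 82.8, 91.8 and 97.7 CPM to 4.28, 5.60 and 4.70 CPM (-4.22 ± 0.17, adjusted p = 2.5e-13) and grd-5 by 2.99 ± 0.17. The risers, such as grl-10 (1.13) and grl-17 (1.44), had low counts at both ages, with means of 2.71 and 5.90 CPM for grl-10. With a minimum mean of 50 counts the list held 13 falls and 3 rises.

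Epidermal antimicrobial peptides divided within the list, with 17 rises and 14 falls of 40 tested (58 listed). The caenacin genes cnc-1, cnc-2, cnc-3, cnc-4, cnc-6, cnc-7 and cnc-11 rose, and cnc-8 and cnc-10 did not pass. Cnc-4 read 1.29, 1.42 and 0.844 CPM at day 1 and 24.5, 27.6 and 19.2 CPM at day 5 (4.30 ± 0.26), and cnc-2 rose by 3.64 ± 0.19. Of the neuropeptide-like group nlp-29, nlp-31 and nlp-34 rose by 1.1, 0.94 and 3.14, while nlp-24 and nlp-33 fell by 2.93 and 1.67. Fipr-21 fell from 73.8, 94.7 and 72.1 CPM to 15.4, 19.2 and 13.7 CPM (-2.31 ± 0.19), and its relatives fipr-22 to fipr-26 that were tested rose. Several members of these families are near copies in tandem, so their reads are uncertain one by one. The nlp-27 gene was not called (-0.38 ± 0.21, adjusted p = 0.14).

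Muscle structure genes fell by similar amounts. Of 39 genes of body wall and pharyngeal muscle, all tested, 35 fell and 1 rose, with quartiles of the fold change at -2.03 and -1.30. Their share of counts went from 1.23% ± 0.039 (SD) to 0.455% ± 0.025. The tropomyosin gene lev-11 read 983, 970 and 1019 CPM at day 1 and 234, 227 and 244 CPM at day 5 (-2.07 ± 0.08). The myosin heavy chain unc-54 read 2061, 1685 and 2126 CPM at day 1 and 461, 361 and 647 CPM at day 5 (-2 ± 0.28), with a wider spread at both ages. Pat-3, the integrin beta subunit that also acts outside muscle, was the member that rose (0.42). The calcium pump sca-1, the myosin chaperone unc-45 and the cofilin unc-60 did not pass, with values of -0.15, -0.05 and -0.01.

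Of 31 genes of synapse, transmitter and touch neurons 15 (48.4%) fell, 2 rose and 14 did not pass, with a median of -0.42. The tubulins of touch neurons mec-7 and mec-12 fell by 1.46 ± 0.13 and 1.22 ± 0.12, mec-7 from 14.4, 14.2 and 14.3 CPM to 5.34, 4.88 and 5.33 CPM. Synaptobrevin snb-1, which serves vesicle release, rose from 136, 157 and 130 CPM to 216, 227 and 165 CPM (0.52 ± 0.14). The neuropeptide genes of the flp family gave 8 falls (26.7%, against 31.3% over all genes) and 1 rise of 30 tested, and 21 did not pass (median -0.30). Flp-11, a sleep peptide, fell by 0.64 ± 0.10 and flp-6 rose by 0.54 ± 0.13. The number of flp falls was 3 without day 1 replicate 2 or without day 5 replicate 3, and 17 when the fit held only the groups compared.

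Most genes of intestinal identity fell, and digestive proteases moved in both directions. Of 18 genes of intestinal identity 13 fell and 3 rose (median -1.07). The brush border actin act-5 read 502, 518 and 491 CPM at day 1 and 116, 102 and 108 CPM at day 5 (-2.21 ± 0.15, adjusted p = 4.1e-10). Elt-2, the GATA factor of the intestine, fell from 14.6, 15 and 13.6 CPM to 6.81, 7.35 and 5.60 CPM (-1.12 ± 0.15), and the proton exchanger nhx-2 fell by 2.24 ± 0.13. Of 8 cathepsin B-like proteases 4 rose and 3 fell. Cpr-1 read 436, 433 and 446 CPM at day 1 and 1231, 1254 and 1162 CPM at day 5 (1.47 ± 0.09), and cpr-5 read 238, 245 and 256 CPM and then 47.5, 45.2 and 46.5 CPM (-2.41 ± 0.09). These relatives thus moved in opposite directions, and the ages did not overlap for either. The aspartic proteases gave 5 rises and 5 falls of 13, among them the intestinal asp-1, which fell from 2402, 2474 and 2639 CPM to 948, 879 and 927 CPM.

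Lipid genes shifted by class. Of 7 tested lysosomal lipases 4 rose and 1 fell (median 1.70). Lipl-2 read 0.547, 0.426 and 0.394 CPM at day 1 and 16.8, 17.8 and 16.8 CPM at day 5 (5.22 ± 0.20, adjusted p = 9e-14) and lipl-1 rose by 4.13 ± 0.20. Lipl-5 did not pass (0.17 ± 0.09), and with a minimum mean of 50 counts the list kept 2 rises and a median of 0.06. The fall of lipl-7 (-0.21 ± 0.09, adjusted p = 0.048) was lost in DESeq2 (adjusted p = 0.052) and under other settings. All 6 tested fatty acid desaturases rose (median 0.70). Fat-2, which makes linoleic acid from oleic acid, read 413, 423 and 419 CPM at day 1 and 1034, 970 and 1004 CPM at day 5 (1.26 ± 0.11). The omega-3 desaturase fat-1 rose by 0.69 ± 0.12. A further desaturase, fat-7, is listed at 0 in all 22 libraries and was not tested, so the 6 are not the whole list. These counts alone cannot show that fat-7 was silent.

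Genes of fatty acid synthesis and elongation gave 9 falls and 1 rise of 15 tested (median -0.58). The elongase elo-2 fell from 188, 201 and 200 CPM to 67.9, 59.0 and 60.2 CPM (-1.66 ± 0.08), elo-1 by 0.71 ± 0.11 and elo-5 by 1.24 ± 0.10. Acetyl-CoA carboxylase pod-2, the first step of synthesis, did not pass (0.04 ± 0.20). Genes of fatty acid oxidation and binding gave 34 falls and 12 rises of 64 tested (median -0.38), with acdh-9 going from 114, 120 and 118 CPM to 24.3, 23.4 and 23.8 CPM. In the propionate and vitamin B12 list 6 fell and 1 rose of 13. The acyl-CoA dehydrogenase acdh-1, of a propionate breakdown route, fell from 1266, 1238 and 1239 CPM to 444, 400 and 452 CPM (-1.53 ± 0.11), and Y38F1A.6, now hphd-1, of the same route, by 1.69 ± 0.11. S-adenosylmethionine synthetase sams-1, which makes the methyl donor, read 422, 424 and 415 CPM at day 1 and 83.7, 72.2 and 79.3 CPM at day 5 (-2.42 ± 0.15).

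Several families of immune effectors had more rises than falls. Of 13 tested lysozymes 8 rose and 3 fell, with a median of 1.37, and their share of counts went from 0.145% ± 0.0036 (SD) to 0.308% ± 0.032. The largest gain in CPM was that of lys-7, with 97.3, 90.8 and 89.5 CPM at day 1 and 1647, 1730 and 1610 CPM at day 5 (4.17 ± 0.12, adjusted p = 6e-15). Lys-2 rose from 22.1, 19.4 and 17.6 CPM to 193, 199 and 197 CPM. Against these, lys-4 fell from a mean of 276 to 36.9 CPM (-2.90) and the invertebrate-type lysozyme ilys-5 from 804, 812 and 838 CPM to 551, 600 and 491 CPM.

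The thaumatin-like and saposin-like genes gave 17 rises and 9 falls of 31 tested (median 0.69). Thn-2 read 14.7, 15 and 15.5 CPM at day 1 and 161, 196 and 152 CPM at day 5 (3.49 ± 0.12) and spp-5, an antibacterial saposin, rose by 0.69 ± 0.14. The call for spp-14 (0.57 ± 0.17) was lost with a minimum mean of 50 counts (adjusted p = 0.055). Of 9 tested dod genes, a set named as downstream of the insulin-regulated factor DAF-16, 7 rose and 2 fell. Dod-3 read 0.700, 0.887 and 0.422 CPM at day 1 and 36.2, 46.9 and 28.2 CPM at day 5 (5.74 ± 0.27), and dod-24 rose by 2.59 ± 0.12. Of 152 tested C-type lectins (265 listed) 50 rose and 48 fell, shares of 32.9% and 31.6% that can be set beside 24.6% and 31.3% over all genes. Clec-87 was among the larger gains in CPM (1573, 1546 and 1597 to 2404, 2337 and 2330), and clec-85 rose by 2.52 ± 0.12. Parts of clec-87 and clec-85 overlap other genes.

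Ribosomal protein genes fell as a block and other genes of protein synthesis much less. Of 78 tested cytosolic ribosomal protein genes 75 fell and 0 rose, with quartiles at -0.71 and -0.57, a narrow range. Their share of counts was 9.31% ± 0.40 (SD) at day 1 and 6.06% ± 0.78 at day 5. Rps-18 read 1572, 1485 and 1610 CPM at day 1 and 938, 995 and 916 CPM at day 5 (-0.71 ± 0.09), and rpl-3 fell by 0.52 ± 0.13. Rpl-11.2 fell furthest among the named ones (-1.25 ± 0.12). Of 25 ribosome biogenesis genes 5 fell and 3 rose (median -0.02). The box C/D methylation proteins fib-1 and K07C5.4 (now nol-56) fell by 0.47 ± 0.11 and 0.59 ± 0.10. Of 43 translation factors 9 fell and 2 rose (median -0.10). The elongation factor gene eef-1A.1, at 10885, 9644 and 10133 CPM at day 1 and 9045, 8571 and 9528 CPM at day 5, did not pass, and the eIF5A gene iff-2 fell by 0.95 ± 0.15.

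Among the energy lists, nuclear genes of complexes I to V had the largest shares of falls, 75.8% for complex I and 52.6% for the others. Of 33 nuclear complex I genes 25 fell and 0 rose (median -0.35). The subunit gene T20H4.5, now ndus-8, read 145, 137 and 146 CPM at day 1 and 88.0, 93.3 and 94.7 CPM at day 5 (-0.64 ± 0.08). Complexes II to V gave 20 falls and 0 rises of 38 (median -0.31), with the complex III core gene ucr-2.2 down by 1.05 ± 0.07. Cyc-2.2 fell from 2.71, 2.48 and 2.56 CPM to 0.167, 0.179 and 0.101 CPM (-4.04 ± 0.39), while the ATP synthase genes atp-2 and H28O16.1 (now atp-1) did not pass. Of 8 tested mRNAs of mitochondrial DNA 1 fell, cytochrome b (-0.41 ± 0.15, adjusted p = 0.029), and its call was not stable to leaving out libraries. The citrate cycle list gave 8 falls and 0 rises of 21 (median -0.14) and glycolysis 6 falls and 2 rises of 18 (median -0.01). Their falls are 38.1% and 33.3%, against 31.3% over all genes. In glycolysis gpd-3, a glyceraldehyde phosphate dehydrogenase, fell by 0.91 ± 0.09 and ldh-1, lactate dehydrogenase, by 0.89 ± 0.09, and aldo-2 and enol-1 did not pass. Mitochondrial ribosomal proteins fell in 21 (30.9%, against 31.3% over all genes) and rose in 3 of 68 tested (median -0.15). There were 32 to 34 falls under 3 other settings.

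Many autophagy genes rose and few proteasome genes passed. Of 27 autophagy genes 16 rose and 2 fell (median 0.36). The beclin gene bec-1, of autophagosome nucleation, read 35.9, 35.6 and 35.9 CPM at day 1 and 64.9, 59.0 and 63.4 CPM at day 5 (0.80 ± 0.07, adjusted p = 2.6e-08). Atg-18 rose by 0.46 ± 0.08, and lgg-1, the ATG8 homologue, by 0.35 ± 0.10, a call lost with a minimum mean of 50 counts (adjusted p = 0.084). Of 33 proteasome subunits 2 rose and 1 fell (median 0.10), with 16 rises once a trend of counts on gene length was removed. The calls of the risers rpn-11 and rpt-2 were lost in 2 and 8 settings, with adjusted p up to 0.091 and 0.34, and rpn-1 and rpn-2 did not pass.

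Heat shock genes gave 6 rises and 5 falls of 22 tested, 27.3% and 22.7% against 24.6% and 31.3% over all genes. The inducible hsp-70 read 0.568, 0.479 and 0.197 CPM at day 1 and 6.59, 5.38 and 4.73 CPM at day 5 (3.68 ± 0.26), and hsp-16.41 rose by 3.45 ± 0.34. Hsp-16 genes come in near-identical copies, so their reads are uncertain one by one. The small heat shock protein sip-1, made in the germline and embryos, read 1120, 1179 and 1255 CPM at day 1 and 2980, 2981 and 2710 CPM at day 5 (1.29 ± 0.16). The genes hsp-1 and daf-21 (now hsp-90) and hsp-6, a chaperone of mitochondria, did not pass. Hsp-25 and hsp-12.2 fell by 1.15 and 1.95. Endoplasmic reticulum chaperones gave 4 rises and 5 falls of 18 (22.2% and 27.8%, near the shares over all genes). Among them pdi-2, a subunit of the enzyme that hydroxylates collagen prolines, fell from 1129, 1092 and 1183 CPM to 569, 521 and 563 CPM (-1.04 ± 0.12), while crt-1 and pdi-3 did not pass.

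Antioxidant genes gave 3 rises and 8 falls of 31 (median -0.01). Those are 9.68% and 25.8%, both below the 24.6% and 31.3% over all genes. Msra-1, a methionine sulfoxide reductase, fell from 175, 177 and 176 CPM to 20.5, 21.5 and 19.7 CPM (-3.10 ± 0.10, adjusted p = 2.5e-14), and sod-3, a mitochondrial superoxide dismutase, by 0.86 ± 0.12. Prdx-2 and gsr-1 did not pass. Metal handling genes gave 6 rises and 3 falls of 11 tested. The metallothionein mtl-1 read 1.44, 1.84 and 0.844 CPM at day 1 and 105, 124 and 90.4 CPM at day 5 (6.23 ± 0.26). Ferritin ftn-1, which stores iron, read 2.01, 1.45 and 1.24 CPM and then 89.8, 99.0 and 77.0 CPM (5.81 ± 0.19). These rises came from near 1 CPM, and day 5 replicate 3 was the lowest of its age in both.

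Detoxification families differed in direction. Cytochrome P450 genes rose in 36 and fell in 14 of 74 tested (median 0.37). Cyp-32B1 read 0.765, 0.922 and 0.788 CPM at day 1 and 9.62, 9.77 and 9.60 CPM at day 5 (3.53 ± 0.11). The copies cyp-31A2 and cyp-31A3, which act in making eggshell lipids, rose by 0.74 ± 0.09 and 0.53 ± 0.10. UDP-glucuronosyltransferases rose in 13 and fell in 31 of 66 (median -0.37), with ugt-47 down from 57.6, 55.5 and 54.8 CPM to 12.8, 13.1 and 12.7 CPM. Glutathione S-transferases rose in 9 and fell in 22 of 46 (median -0.48), with gst-27 down by 1.62 ± 0.11.

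Insulin-like peptide genes moved in both directions, 8 up and 12 down of 36 tested. Those are 22.2% and 33.3%, near the 24.6% and 31.3% over all genes. Ins-19 read 0.328, 0.284 and 0.281 CPM at day 1 and 46.0, 47.6 and 45.9 CPM at day 5 (7.27 ± 0.25, adjusted p = 3.5e-14). The gene ins-7 rose from a mean of 0.381 to 2.82 CPM (2.80), and daf-28, of larval arrest control, fell from 4.38 to 1.84 CPM (-1.25). Ins-33 fell by 2.95 ± 0.29. Ins-13 fell from 242 to 3 counts over 3 libraries, a pooled ratio of 68.1 (95% interval 23 to 332), but it overlaps acdh-2, which fell from 317 to 2 counts, and their reads cannot be separated. The insulin receptor daf-2 read 131, 108 and 133 CPM at day 1 and 222, 190 and 310 CPM at day 5, without overlap, and did not pass (0.96 ± 0.49, adjusted p = 0.10). Its effector daf-16 read 164, 171 and 191 CPM and 208, 157 and 240 CPM, groups that overlap (0.20 ± 0.14, adjusted p = 0.22). The stress factors hsf-1 and skn-1 rose by 0.39 ± 0.12 and 0.30 ± 0.11, and both calls were lost without day 5 replicate 3 (adjusted p = 0.073 and 0.17). That of skn-1 was lost in 5 more settings, which were leaving out day 1 replicate 1 or 2 or day 5 replicate 1 (adjusted p = 0.064, 0.093 and 0.062), a minimum mean of 50 counts (0.07) and no filter (0.056).

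Of 222 tested nuclear hormone receptors (289 listed) 77 fell and 30 rose (median -0.25). Those are 34.7% and 13.5%, against 31.3% and 24.6% over all genes. Nhr-114, of the response to low vitamin B12 and methionine, read 207, 209 and 209 CPM at day 1 and 15.8, 14.7 and 15.9 CPM at day 5 (-3.75 ± 0.13, adjusted p = 3.2e-14), and nhr-68, which acts in the propionate response, fell by 1.35 ± 0.12. Nhr-49, of fat metabolism, rose by 0.28 ± 0.08, a call lost without the filter on low counts (adjusted p = 0.080). F-box genes, adaptors for protein degradation, gave 90 rises and 86 falls of 333 tested (391 listed; median -0.04). That is 27% and 25.8%, near the shares over all genes. Fbxa-95 rose from 8.09, 8.19 and 7.85 CPM to 23.6, 21.3 and 22.6 CPM.

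The genes with the largest fold changes upwards had almost no reads at day 1. Scl-20, of a secreted family of cysteine-rich proteins, had 1 count at day 1 and 1136 at day 5 over 3 libraries, a pooled ratio of 1346 with a 95% interval of 241 to 53229. F56D6.9, F56D6.8 and dct-8 lie next to each other on chromosome IV, at 3892327 to 3895506 on WBcel235, and went from 4 to 2495, 11 to 3831 and 11 to 2536 counts. C54C8.12 and the neuropeptide-like nlp-39, a few kilobases apart on chromosome I, went from 2 to 1106 and from 5 to 1886 counts. Each of these 6 was at or under 0.153 CPM in every day 1 library and at 8.32 CPM or above in every day 5 library. Among genes outside the lists with large gains in level, lea-1, which codes for a desiccation protection protein, rose from 171, 105 and 120 CPM to 1157, 1059 and 1385 CPM (3.19 ± 0.40). C08F11.11, now ule-4, a uterine lumen protein, rose from 269, 250 and 278 CPM to 831, 878 and 866 CPM (1.69 ± 0.14). Downwards, the chemoreceptor-family gene sri-40 went from 25.8, 30.4 and 25.4 CPM to 0.195, 0.258 and 0.268 CPM (-6.80 ± 0.21), and Y47D7A.6, F43C11.3 and C33F10.1 fell from levels under 4 CPM, with fold changes of -6.35 ± 0.66, -6.23 ± 0.53 and -5.93 ± 0.53.

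Calls were also counted by chromosome. Of 2424 tested genes on X, 1038 (42.8%) were lower and 405 (16.7%) higher, with a median of -0.35. On the 5 autosomes between 24.1% and 31.8% were lower and between 24.6% and 27.2% higher, with medians from -0.06 to 0.10. In C. elegans the X chromosome is largely silent in the germline, and genes with a role in the germline are scarce on it. The difference between X and the autosomes was not tested, since genes are not replicates.

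**Figure D3:**
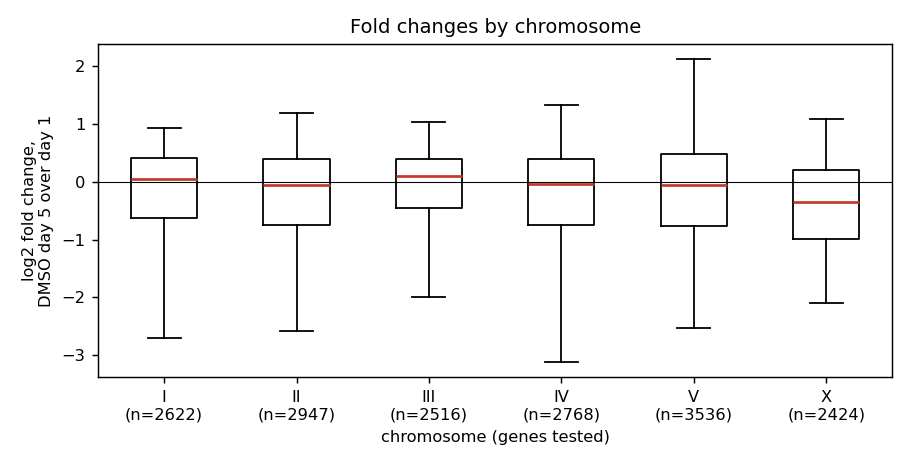
Boxes give the quartiles and whiskers the 5th to 95th percentile of the log2 fold change of DMSO day 5 over day 1 for genes tested on each chromosome. The red median of X, at -0.35, lies below that of each autosome, and chromosome III has the highest, at 0.10.

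The lists took different courses after day 5. Their shares of the counts were also taken in the DMSO libraries of day 10 (n = 3) and day 20 (n = 2). No test compared these libraries with another age, but they entered the fit behind the p-values above. Collagens were at means of 0.558% at day 5, 0.172% at day 10 and 0.0853% at day 20. The vitellogenin mean went from 4.63% at day 1 through 3.54% and 2.21% to 0.847%, lower at each later age. The day 10 libraries, at 1.19%, 2.85% and 2.60%, overlap those of day 5, at 3.37%, 2.71% and 4.53%. Ribosomal protein genes were at means of 6.06%, 7.07% and 6.63% from day 5 on and muscle genes at 0.455%, 0.398% and 0.453%, with day 20 near day 5. Day 10 replicate 1 stood apart for ribosomal protein genes, at 8.66% against 6.11% and 6.44%. Lysozymes had their highest mean at day 5 (0.308%), and were at 0.234% and 0.0322% later. Their day 10 libraries, at 0.29%, 0.205% and 0.209%, overlap those of day 5, at 0.306%, 0.341% and 0.278%, through replicate 1. Autophagy genes went from 0.237% at day 5 to 0.264% and 0.346%. For lys-7 the means were 92.5, 1662, 1538 and 183 CPM at the 4 ages, and for ins-19 0.298, 46.5, 64.1 and 2.42 CPM.

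**Figure D4:**
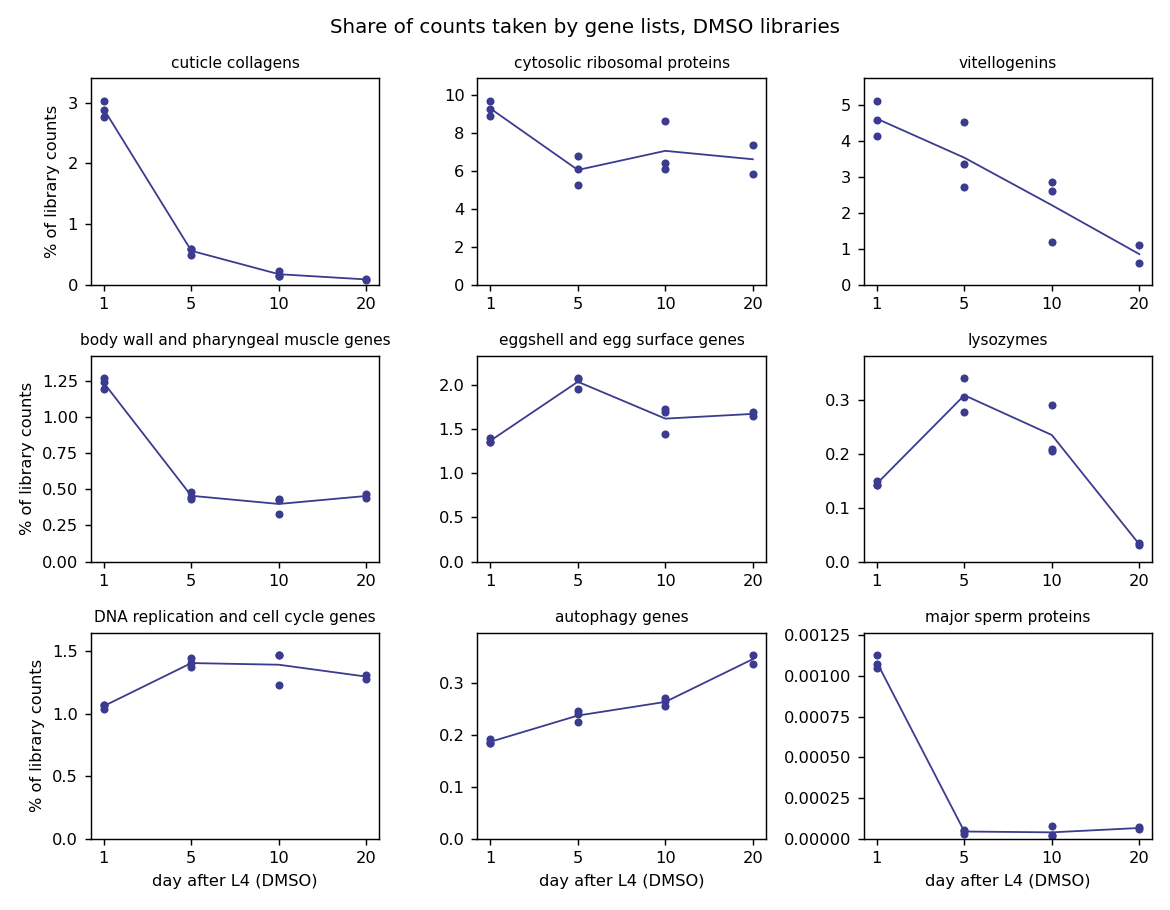
Share of each library's counts taken by 9 gene lists at days 1, 5, 10 and 20 in DMSO, with 1 point per library and lines through the means. Collagens and vitellogenins have a lower mean at each later age, and lysozymes have their highest mean at day 5. The means of muscle genes lie between 0.398% and 0.455% from day 5 on, and single libraries between 0.332% and 0.482%.

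The rotenone libraries passed through the same ages, and no library is on a side of both steps. Both steps came from 1 fit with a shared filter, scaling and spread. Their overlap is therefore not that of independent tests. In the rotenone libraries 10552 genes (62.7%) passed between day 1 and day 5, 4600 higher (27.3%) and 5952 lower (35.4%). Of the genes higher in DMSO, 3337 were higher in rotenone too, which is 80.5% of the DMSO list and 72.5% of the rotenone list, and 15 were lower. Of those lower in DMSO, 4759 were also lower (90.3% and 80% of the lists) and 0 were higher. Across genes the log2 fold changes had a Pearson correlation of 0.891 and a Spearman correlation of 0.881, given as a description since genes are not independent. The fold change was related to exonic length in rotenone (Spearman 0.228) more than in DMSO (0.0603). Rotenone day 5 replicate 2 had 17.6% of its counts in the ribosomal RNA gene rrn-3.1, against 0.551% to 1.67% in the 6 DMSO libraries.

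The step itself differed between the treatments for 82 genes (0.487%), with 11 positive (0.0654%) and 71 negative (0.422%) differences, where a positive value means a higher fold change in rotenone. At an unadjusted p under 0.05 there were 1778. With only the groups compared there were 1255 positive and 426 negative differences, with no filter on low counts 332 and 243, and without DMSO day 10 replicate 1, which is in neither step, 521 and 267. The balance of the 2 directions thus turned with the setting. For 16 of the 82 the fold changes in DMSO and rotenone had opposite signs, whether or not each passed by itself. The 11 genes of the col family among the 82 had a lower fold change in rotenone. Rol-1, another cuticle collagen, read 20.9, 18.3 and 19.9 CPM at day 1 and 2.81, 3.51 and 3.19 CPM at day 5 in DMSO. In rotenone it read 29, 31.6 and 34.3 CPM and then 0.0320, 0.229 and 0.271 CPM, a difference between steps of -5.21 ± 0.42 (adjusted p = 1.9e-06). Col-138 and col-49 gave -4.14 ± 0.35 and -4.81 ± 0.41.

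Among gut genes, lys-7 rose less in rotenone, from 163, 146 and 187 CPM to 1148, 1171 and 1232 CPM, a difference of -1.33 ± 0.15 (adjusted p = 8.1e-05). Its rotenone libraries were above the DMSO ones at day 1 and below them at day 5. Thn-2 (-1.29 ± 0.16) and dod-3 (-1.91 ± 0.37) also rose less. Dod-23 rose more, from 69.8, 66.4 and 66.7 CPM to 490, 538 and 523 CPM, against 75.2, 68.3 and 75.8 CPM to 185, 191 and 177 CPM in DMSO (1.60 ± 0.15, adjusted p = 8e-06). Dhs-26, of the short-chain dehydrogenases, rose in both, by 5.06 ± 0.12 in DMSO, with a difference of 1.43 ± 0.17. The protease cpr-5 fell less in rotenone, to 90.7, 82.1 and 80.5 CPM (1.07 ± 0.12, adjusted p = 4.7e-05).

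**Figure D5:**
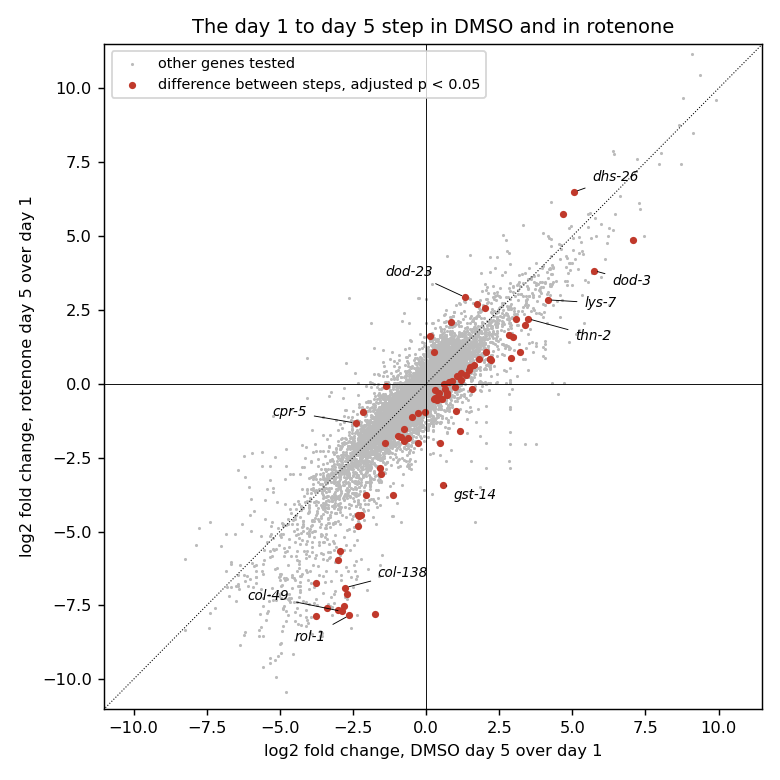
Each point is a gene tested, placed by its log2 fold change from day 1 to day 5 in DMSO (x axis) and in rotenone (y axis), with the dotted line marking equal steps. Red points are the 82 genes whose steps differed at an adjusted p under 0.05; the collagens rol-1, col-138 and col-49 lie below the line on the left, and lys-7, thn-2 and dod-3 below it on the right.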

How the data were processed

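RNA was sequenced from whole worms in 22 libraries of 8 groups. The authors deposited whole-number read counts per gene without normalization, and per the submitters' processing notes TopHat 1.4.1, HTSeq and the build WBcel235 were named, with no role or order. The annotation version and read filters are not given in the sources used here. The kit is unstranded, so overlapping genes were not separated. Counts of all 22 libraries entered 1 quasi-likelihood fit of edgeR 4.0.16 in R 4.3.3 with TMM scaling and filterByExpr, which kept 16822 of 45461 genes. Adjusted p-values are Benjamini-Hochberg over all genes tested, with a threshold of 0.05. CPM use the TMM-scaled library sizes, and a list's share is of the counts of tested genes. RefSeq of the same build gave names and coordinates for 16541 tested genes. Gene names follow the deposited table, with the current one where it differs. The test was tried on simulated data first.

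The comparison, the 53 gene lists and the rule for named genes were chosen with earlier results of these data known. The rule took the 10 largest changes per direction in fold and in CPM (mean of at least 20 counts, groups not overlapping), 4 members per list, 12 single genes and 6 genes whose step differed between treatments. Named outside it, after their values were seen, were alg-3, alg-4, alg-1, alg-2, chs-1, cnc-1, cnc-3, cnc-6, cnc-7, cnc-8, cnc-10, cnc-11, col-43, col-95, cpg-9, daf-28, end-1, the fipr-22 group, grl-10, grl-17, hsp-12.2, hsp-25, ins-7, lys-4, nlp-24, nlp-29, nlp-31, nlp-33, nlp-34, pat-3, tbx-37, tbx-38, unc-45, unc-60 and those of the closing section. Alternatives were RLE size factors, DESeq2 1.42.0, 2 other filters, a replicate term, only the groups compared, a length trend removed (added after seeing the data) and each library left out. Intervals cover counting error only.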

Additional observations from a re-analysis of the deposited data

Results flagged for a closer look

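The change from day 1 to day 5 differed between DMSO and rotenone libraries, by a test of the difference itself, for 9 of the genes described above. Values are the log2 fold change in rotenone minus that in DMSO. The cuticle genes rol-1, col-138 and col-49 gave -5.21, -4.14 and -4.81, and fell in both treatments. In rotenone their day 5 libraries were all under 1 CPM. The immune genes lys-7 and thn-2 gave -1.33 and -1.29 and dod-3 gave -1.91, and they rose in both. Dod-23 gave 1.60 and the dehydrogenase gene dhs-26 gave 1.43, both rising in both treatments, and the protease gene cpr-5 gave 1.07 and fell in both. Each of the 9 kept its direction between treatments, whereas 16 of all 82 genes with a called difference had steps of opposite sign. What lies behind these differences was not tested.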

How the results depend on the processing

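No named gene that was called changed sign in any setting that was run. With the length trend removed rises outnumbered falls, with 5594 against 4942 in DMSO and 5908 against 5212 in rotenone, and positive differences outnumbered negative ones with no filter, with only the groups compared and without DMSO day 10 replicate 1. For the DMSO step the number of genes higher ran from 2834 (minimum mean of 50 counts) to 5594 (length trend removed), and the number lower from 3871 to 5885. Leaving out 1 library gave 3517 to 4874 higher and 4765 to 5885 lower, the top of each range without DMSO day 10 replicate 1. In rotenone the ranges were 4104 to 5278 and 5324 to 6228. The number of positive differences between steps, 11, was 42 in DESeq2, 332 with no filter, 1255 with only the groups compared and 5 to 521 with 1 library left out. The number of negative ones, 71, was 128, 243, 426 and 27 to 267 in the same order, and 521 and 267 came without DMSO day 10 replicate 1. Leaving out a library of the compared groups gave at most 11 and 66, and fewer for most of them, DMSO day 5 replicate 2 giving 5 and 27. Their cause was not tested. With the replicate number as a block 4359 genes were higher and 5359 lower in DMSO, of which 4120 and 5237 were also called without it, and the differences were 12 and 78. Correlations of deviations between equal numbers were -0.0337, 0.16 and 0.139. Replicates 2 and 3 matched their own number best and replicate 1 did not. Between DMSO and rotenone at day 1 each number matched itself best (0.0369, 0.114 and 0.05), which was not so in the other pairs of groups. Correlations this small cannot show whether equal numbers mark paired samples. Of 187 named genes called, 173 kept the call in every setting in which they were tested, and 14 lost it at least once. Some, such as msp-76, were not tested with a minimum mean of 50 counts. With a minimum mean of 50 counts, fewer genes were tested and the lists shrank: major sperm proteins kept 0 calls, other sperm genes 14 falls, early zygotic genes 11 falls, collagens 9 rises, epidermal peptides 11 rises, C-type lectins 31 rises and 23 falls, autophagy genes 9 rises, glutathione S-transferases 3 and 14, insulins 4 and 6, F-box genes 56 and 49, and hormone receptors 18 rises. With only the groups compared, translation factors had 17 falls, heat shock genes 10, antioxidant genes 13 and Argonautes 8. Metal genes had 1 fall without DMSO day 1 replicate 1 or day 5 replicate 1, and insulins 5 rises without day 5 replicate 2. The median of all genes moved by -0.11 with that minimum and by 0.10 with the length trend removed, and by less elsewhere. Medians of C-type lectins, F-box, antioxidant, aspartic protease, epidermal peptide, glycolysis, proteasome and ribosome biogenesis genes changed sign between settings.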

Other observations

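Outside the rule for named genes, some genes of stress and detoxification also had different steps in DMSO and rotenone. They are given here as values chosen after they were seen. Of these, cdr-4 and cyp-35A3 belong to the metal handling and cytochrome P450 lists. The gene fmo-2, a flavin-containing monooxygenase, read 3.45, 3.09 and 2.59 CPM at day 1 and 25.6, 25.3 and 21.4 CPM at day 5 in DMSO (2.98 ± 0.17, adjusted p = 2.2e-11). In rotenone it read 6.78, 4.48 and 6.78 CPM and then 18.6, 16.7 and 17.9 CPM, a difference between steps of -1.40 ± 0.23 (adjusted p = 0.0040). The day 1 libraries were thus higher and the day 5 libraries lower on rotenone. The cadmium-responsive gene cdr-4 rose in DMSO, from 14.7, 15.8 and 14 CPM to 23.3, 24.8 and 21.7 CPM (0.65 ± 0.11). On rotenone it was at 27.1, 24.2 and 29.7 CPM and then 22.1, 24.7 and 24.6 CPM, which did not pass (-0.18 ± 0.11), and the difference was -0.83 ± 0.16 (adjusted p = 0.020). Cyp-35A3, of the cytochromes P450, rose more on rotenone, with a difference of 1.26 ± 0.26 (adjusted p = 0.032). C50F7.5 read 1.09, 0.568 and 0.394 CPM at day 1 and 94.5, 96.1 and 89.1 CPM at day 5 in DMSO (7.06 ± 0.29), and reached 43.6, 37.7 and 46.2 CPM on rotenone.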
